A study of Mus musculus with 14 samples.

Results

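Long-term hematopoietic stem cells (LT-HSCs) with much P-selectin on their surface were compared with LT-HSCs with little of it, taken from the same old mice. The comparison holds 8 of the 14 RNA-seq libraries of the series: all those whose labels place them before transplantation, 4 named Selp high and 4 named Selp low. Both groups came from female C57BL/6 mice older than 24 months and held 5000 cells per library, sorted from bone marrow as CD150+ c-Kit+ Sca-1+ cells without CD48 or the lineage markers Ter-119, Mac-1, Gr-1, CD3 and B220. They carry no allele or treatment in the labels and differ only in the P-selectin gate, whose limits the labels do not give. The other 6 libraries held donor-derived LT-HSCs sorted, without regard to P-selectin, from irradiated recipients, aged 10 to 16 weeks when transplanted, 16 weeks after 1000 Selp high or Selp low cells from old donors were given, and served only as a contrast in the last comparison. Of 55450 gene identifiers, 15426 had enough reads for testing. All genes tested were described, grouped by lists of genes with known roles.

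P-selectin, the product of Selp, is an adhesion receptor that platelets and endothelial cells store in granules and bring to the surface when activated, where it holds on to glycosylated ligands such as PSGL-1 (Selplg) on leukocytes. In mouse HSCs, Selp is one of the genes whose transcript rises with age, together with other genes of platelets and cell adhesion. HSCs divide rarely, and the cells that leave this state enter the cell cycle through MYC, cyclin-dependent kinases and E2F factors before they mature into multipotent progenitors.

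The 8 libraries had 25972480 to 38216775 reads assigned to genes. Same-numbered Selp high and Selp low libraries deviated together from their group means (r of 0.33 to 0.57 across genes, against -0.46 to 0.05 for other pairs), so the number stood for the mouse and entered the fit as a block. The mice differed more than the gates. Over genes the median share of variance was 61.3% for the mouse and 8.63% for the gate. The mouse share covers 4 mice and the gate share only the high and low groups, so the mouse share would be larger even without any effect. Principal component 1 (36.8%) placed both libraries of mouse 4 at 53.3 and 60.1 and both of mouse 1 at -55.3 and -39.9. Levels below are CPM, counts scaled to a common library size after TMM normalization. Differences are on the log2 scale, Selp high minus Selp low, with the standard error (SE) of the edgeR fit, and calls were made where the p adjusted by Benjamini-Hochberg was under 0.05.

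Selp itself had a higher level in Selp high cells in each mouse. It was at 654, 757, 752 and 606 CPM in the Selp high libraries of mice 1, 2, 3 and 4 and at 473, 614, 650.4 and 476 CPM in their Selp low libraries. The ranges of the groups overlapped, since the Selp high library of mouse 4 lay below the Selp low libraries of mice 2 and 3. The difference was 0.33 ± 0.07 (adjusted p = 0.164), a 1.26-fold higher level in the cells gated as high for the protein. It was not called by edgeR or limma voom and was called as higher by DESeq2 (0.33, adjusted p = 0.00337). The sort markers were shared by both gates. Slamf1, which encodes CD150, averaged 239 ± 27.6 CPM in the high gate against 201 ± 29.0 CPM in the low gate (SD, n = 4 each), and Ly6a, the Sca-1 gene, 485 ± 169 against 410.3 ± 191 CPM, both with the higher level in the high gate in 4 of 4 mice. Kit was at 1168 ± 97.2 and 1326 ± 321 CPM, while Cd48, gated as negative, was at 6.30 ± 6.43 and 7.72 ± 8.84 CPM. HSC genes were abundant in both, with means of 316 and 312 CPM for the protein C receptor gene Procr, 373 and 345 CPM for the transcription factor gene Hlf, and 313 and 283 CPM for Mecom.

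By edgeR 2 genes were called, both lower in Selp high cells (0.0130% of the genes tested), and 0 were called as higher (0%). The share at an unadjusted p under 0.05 was 7.51% for higher values (1158 genes) and 7.03% for lower ones (1085 genes). At an adjusted p under 0.1 there were 5 higher and 9 lower genes, and under 0.2 there were 331 and 258. DESeq2 with the same block called 301 genes as higher (1.95%) and 271 as lower (1.76%). Limma voom called 1 as higher and 3 as lower. With no filter on low counts edgeR called 147 genes, and with no term for the mouse it called 0 (744 at an unadjusted p under 0.05). In 4 of 4 mice 1844 genes had a higher value in Selp high cells (12%) and 1860 a lower one (12.1%). The 2 groups did not overlap for 245 genes with higher (1.59%) and 208 genes with lower (1.35%) levels in Selp high cells. Over all genes tested 49.3% had a higher and 50.7% a lower value, whatever the p. These shares are the background for the counts below. The gene lists were chosen with earlier results of these data known, so their counts describe the difference and do not test it.

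**Figure D1:**
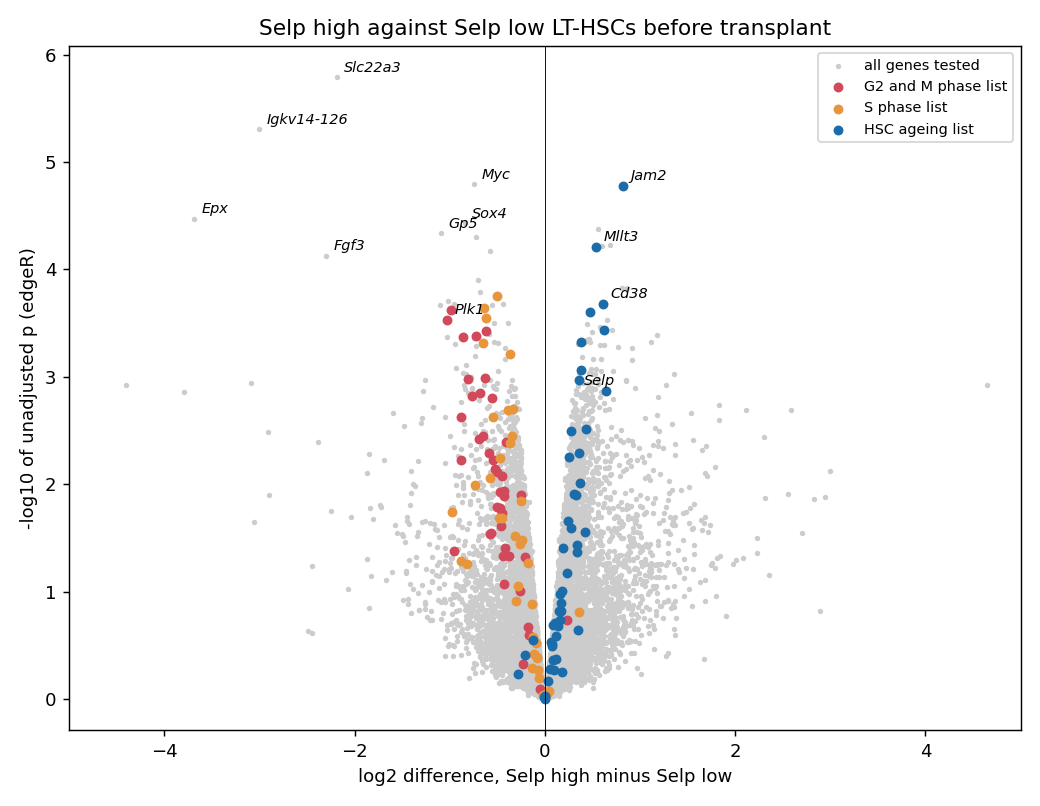
Each point is a gene, with its log2 difference between Selp high and Selp low LT-HSCs on the x axis and -log10 of its unadjusted edgeR p on the y axis; colours mark the G2 and M phase, S phase and HSC ageing lists. Slc22a3 and Igkv14-126 lie highest, 41 of 43 G2 and M phase genes lie left of 0 and 44 of 49 HSC ageing genes lie right of it.

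The gene with the smallest p was Slc22a3 (ENSMUSG00000023828.3, chromosome 17, 12418960 to 12507704, minus strand, GRCm38), which encodes an organic cation transporter. Its level was 17.4, 31.9, 31.2 and 27.9 CPM in the Selp low and 4.06, 7.14, 4.66 and 8.27 CPM in the Selp high libraries of mice 1 to 4. Every Selp high library lay below every Selp low library. It was 4.54-fold lower in Selp high cells (-2.18 ± 0.18, adjusted p = 0.025). The counts were made without regard to strand, and Plg and the antisense transcript AC132106.1 overlap Slc22a3 in the annotation on the other strand, so reads of the 3 cannot be fully told apart. The second called gene, Igkv14-126, is a variable segment of the immunoglobulin kappa light chain. It was at 0.13, 115, 0 and 38.1 CPM in Selp low and 0, 11.3, 0.034 and 5.85 CPM in Selp high libraries. Its reads lay almost wholly in mice 2 and 4, where Selp high cells had the lower level, and mice 1 and 3 had hardly any in either gate (-3.00 ± 0.28, adjusted p = 0.0384). Of 9 immunoglobulin variable genes tested (Igkv and Ighv), Igkv14-126 included, 7 had lower and 2 higher values. At an unadjusted edgeR p under 0.05 there were 4 lower and 2 higher, and 1 was lower in 4 of 4 mice. The B and plasma cell markers, which had lower values, are given with the markers of other cells. When mouse 1, 2 or 3 was left out there were 0 calls, with 1171 to 2006 genes at an unadjusted p under 0.05, while without mouse 4 there were 14 calls, Slc22a3 among them. Igkv14-126 did not pass the filter on low counts without mouse 2 or mouse 4.

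Next to these calls stood a set of genes with adjusted p-values from 0.0642 to 0.0822 that kept their direction in 4 of 4 mice. Jam2 (ENSMUSG00000053062.16, chromosome 16, 84774123 to 84825928, plus strand), a junctional adhesion molecule, was at 160.3, 167, 173 and 169.8 CPM in Selp low and 313, 312, 320.4 and 242 CPM in Selp high libraries. The 4 Selp low libraries were close together, and even the lowest Selp high library, that of mouse 4, lay above them. The difference was 0.82 ± 0.09 (adjusted p = 0.0642), a 1.76-fold higher level. Myc (ENSMUSG00000022346.15, chromosome 15, 61985391 to 61990374, plus strand), the growth regulator, was at 379.8, 427, 450.0 and 424 CPM in Selp low and 202, 268, 309.8 and 236 CPM in Selp high libraries, with no overlap, and was 1.67-fold lower (-0.74 ± 0.08, adjusted p = 0.0642). Sox4 (ENSMUSG00000076431.4, chromosome 13, 28948919 to 28953713, minus strand), a transcription factor of early lymphoid and stem cells, was at 162, 171, 156 and 140.3 and 76.8, 117, 94.5 and 69.2 CPM in the same order, with no overlap (-0.84 ± 0.10, adjusted p = 0.079). Limma voom called Jam2 and Myc as well as both genes called by edgeR, and DESeq2 called Jam2, Myc and Sox4.

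Fgf3 (ENSMUSG00000031074.14, chromosome 7, 144838083 to 144844436, plus strand), a fibroblast growth factor known from embryonic development, had the largest fold difference of the genes whose groups did not overlap among those named here. It was at 9.78, 14.4, 16.1 and 12.4 CPM in Selp low and 1.66, 1.78, 2.69 and 5.78 CPM in Selp high libraries. The Selp high library of mouse 4 was the highest of its group and still lay below every Selp low library (-2.30 ± 0.31, adjusted p = 0.0822). Gp5, which encodes platelet glycoprotein V, was at 30.5, 27.6, 28.2 and 24.3 and 17.6, 10.0, 13.04 and 12.1 CPM in the same order, without overlap (-1.09 ± 0.14, adjusted p = 0.079). Mllt3, a chromatin reader known to maintain HSCs, was at 224, 250.0, 235 and 247 CPM in Selp low and 331, 387, 351 and 321 CPM in Selp high libraries, all of the latter above all of the former (0.54 ± 0.07, adjusted p = 0.079). Cebpb, a transcription factor of myeloid cells and emergency granulopoiesis, was at 439, 539, 443 and 300.3 and 267, 344, 304 and 230.0 CPM. It was lower in each mouse, though the groups overlapped (-0.57 ± 0.08, adjusted p = 0.0798).

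**Figure D2:**
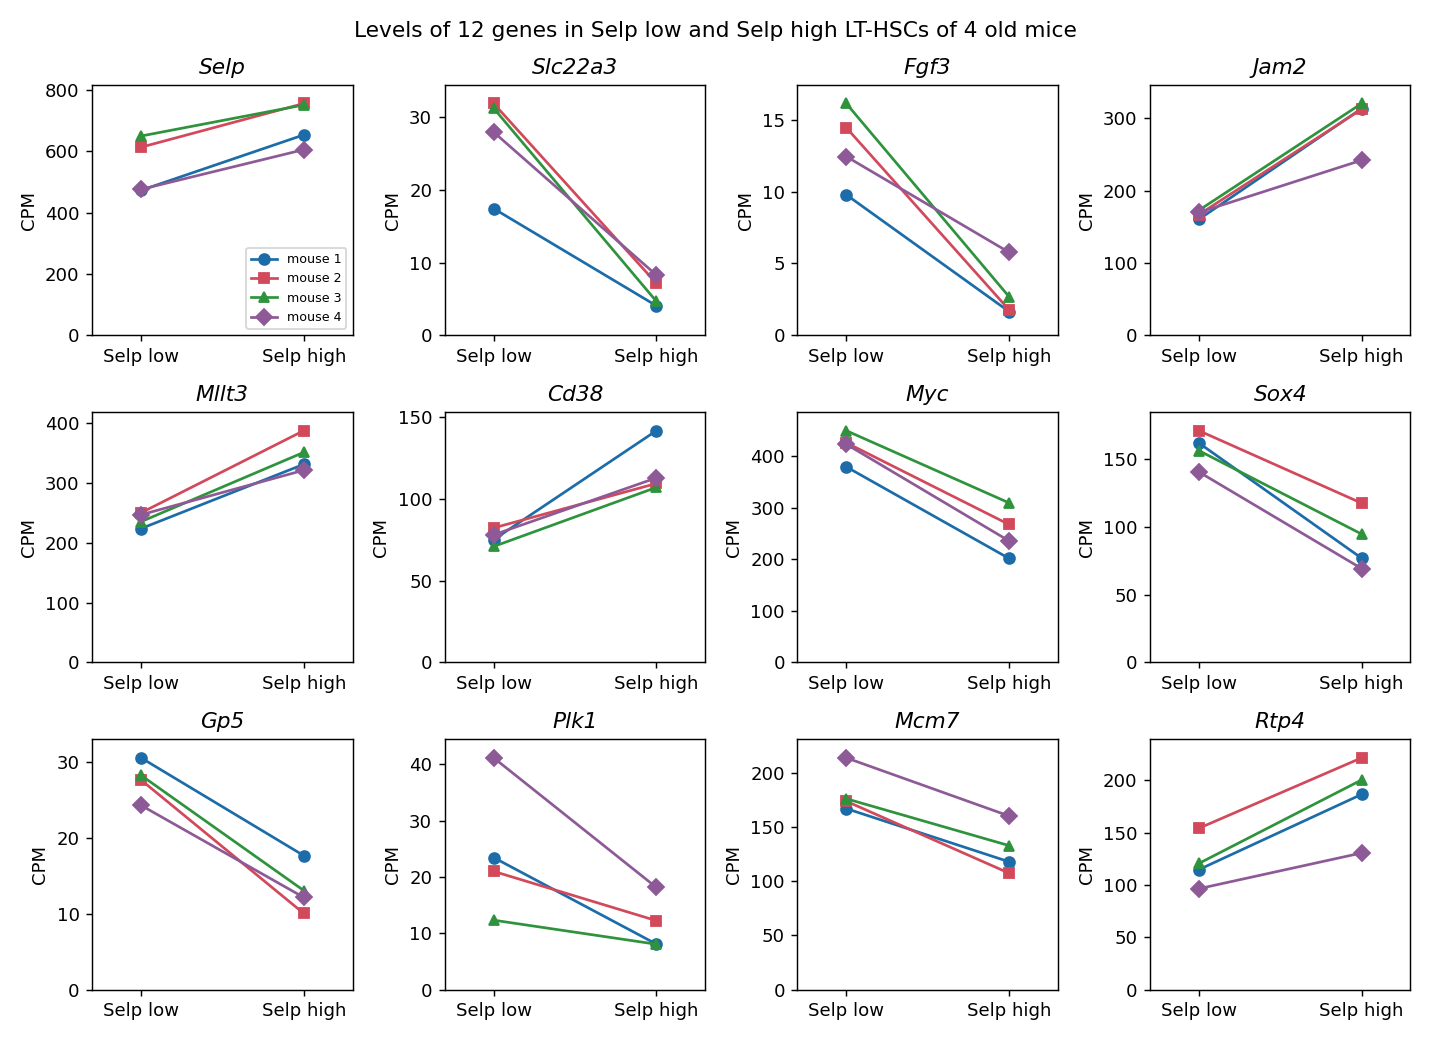
Each panel gives the level of 1 gene in CPM (y axis, from 0) in the Selp low and Selp high library of each of 4 mice, joined by a line. The lines run down in all 4 mice for Slc22a3, Fgf3, Myc, Sox4, Gp5, Plk1 and Mcm7 and up for Selp, Jam2, Mllt3, Cd38 and Rtp4.

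Genes known as more abundant in old than in young HSCs mostly had higher values in the high gate. Of 50 listed genes 49 were tested (Selp is not in the list), and 44 of them did, with a median of 0.18 against -0.004 over all genes. An unadjusted p under 0.05 was reached by 22 as higher and by 0 as lower, and 22 were higher in 4 of 4 mice. The median was 0.37, 0.30, 0.23 and 0.11 in mice 1 to 4. By edgeR 0 of the 49 were called, and by DESeq2 14 were called as higher and 0 as lower. Beside Jam2 and Mllt3, the list held Cd38, a surface enzyme that consumes NAD, at 74.9, 82.1, 70.8 and 77.9 CPM in Selp low and 141, 109, 107 and 113 CPM in Selp high libraries. The groups did not overlap, and mouse 1 had the widest gap (0.61 ± 0.10, adjusted p = 0.132). Clca3a1, a surface protein of the chloride channel accessory family, was at 43.6, 64.1, 103 and 106 and 66.0, 90.3, 141 and 136 CPM. It was higher in each mouse while the mice themselves differed more than the gates (0.47 ± 0.08, adjusted p = 0.135). Osmr, the oncostatin M receptor subunit, differed by 0.62 ± 0.11, the extracellular chaperone gene Clu by 0.39 ± 0.07, and Perp, a p53 effector in desmosomes, by 0.64 ± 0.13, each higher in 4 of 4 mice and none called by edgeR.

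Other genes of this list did not have higher values in each mouse or had small differences. Vwf and Mmrn1, which encode adhesive proteins of platelet granules, differed by 0.14 ± 0.10 and 0.16 ± 0.09 and were higher in 3 of 4 mice. The metallothionein genes Mt1 and Mt2 were at -0.00 and 0.35, the platelet integrin subunit gene Itgb3 at -0.13 and Ltf, a neutrophil granule gene of the list, at -0.28. Tgm2, a transglutaminase gene, averaged 911 ± 137 CPM in the high gate against 867 ± 114 CPM in the low gate (SD, n = 4 each), a difference of 0.07 ± 0.06 (adjusted p = 0.648). The general long-term HSC list, which shares members such as Mllt3 and Slamf1 with the ageing list, had a median of 0.05. In it 23 of 36 genes were higher and 13 lower. Mllt3, Slamf1 and the angiopoietin gene Angpt1 (0.27 ± 0.07) had higher values in 4 of 4 mice, and the repressor gene Gfi1b (-0.31 ± 0.07) and the transcription factor gene Tcf15 (-0.28 ± 0.10) lower ones.

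Cell cycle genes had mostly lower values in the high gate, those of mitosis above all. Of 43 genes of G2 and M phase, 41 had lower values, 35 at an unadjusted p under 0.05 and 32 in 4 of 4 mice, with a median of -0.50. The median was -0.59, -0.70, -0.25 and -0.50 in mice 1 to 4. Of 38 S phase genes, 35 had lower values, 20 at an unadjusted p under 0.05 and 22 in 4 of 4 mice, with a median of -0.31 and values of -0.22, -0.49, -0.31 and -0.25 by mouse. By edgeR 0 genes of either list were called, and DESeq2 called 20 G2 and M phase genes and 13 S phase genes, all lower. In bulk libraries fewer cycling cells and less RNA of these genes per cell cannot be told apart. The summed level of the G2 and M phase list was 935, 799.7, 704 and 1667 CPM in Selp low and 646, 507, 591 and 1190 CPM in Selp high libraries. It was lower in the Selp high library of each mouse, and both libraries of mouse 4 were above the other 6.

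Among the mitotic genes, Plk1, a kinase that drives entry into and passage through mitosis, was at 23.5, 21.0, 12.3 and 41.2 CPM in Selp low and 8.09, 12.2, 8.07 and 18.1 CPM in Selp high libraries. The Selp low library of mouse 3 lay below the Selp high library of mouse 4, so the groups overlapped (-1.03 ± 0.17, adjusted p = 0.135). Foxm1, the transcription factor of mitotic genes, was at 13.5, 11.4, 8.37 and 18.3 and 6.21, 5.81, 5.41 and 8.04 CPM with no overlap (-0.98 ± 0.16, adjusted p = 0.135). Aurka, a spindle kinase, was at 25.1, 22.2, 23.9 and 40.7 CPM in Selp low and 14.97, 14.4, 15.9 and 28.4 CPM in Selp high libraries (-0.62 ± 0.11). The Selp high library of mouse 4 stood well above the other 3 of its group. Prc1, which bundles microtubules for cell division, differed by -0.73 ± 0.13, the cyclin-dependent kinase gene Cdk1 by -0.63 ± 0.12 and the proliferation marker Mki67 by -0.65 ± 0.16. The 2 genes of the list with higher values were the kinesin gene Kif20b (0.23 ± 0.16) and the kinetochore gene Spc25 (0.01 ± 0.12).

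Among the S phase genes, Mcm7 and Mcm5 encode subunits of the helicase that opens DNA for replication. Mcm7 was at 167, 174, 176 and 214 CPM in Selp low and 118, 107, 133 and 160.1 CPM in Selp high libraries, each Selp high library below each Selp low library (-0.51 ± 0.08, adjusted p = 0.132). Mcm7 overlaps Cops6 and Ap4m1 in the annotation. Mcm5 was at 151, 160.3, 156 and 201 and 109, 81.9, 96.5 and 150.2 CPM, also without overlap (-0.64 ± 0.10, adjusted p = 0.135). Cdt1, which loads that helicase, was at 32.4, 33.0, 27.8 and 45.6 and 22.6, 21.9, 18.8 and 26.3 CPM and did not overlap either (-0.62 ± 0.10). Uhrf1, which keeps DNA methylation through replication, was at 49.3, 53.6, 53.3 and 89.1 CPM in Selp low and 36.0, 25.7, 35.8 and 61.7 CPM in Selp high libraries (-0.65 ± 0.12). Mouse 4 was highest in both gates. Pcna, the sliding clamp, differed by -0.12 ± 0.10, and Ccne1, cyclin E1 of the step before S phase, had a higher value (0.36 ± 0.23).

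The stretch of 200 bases before the start sites of both lists was searched in RefSeq promoters (build GRCm38.p6) on both strands. Members were searched whatever their difference between gates, so the shares describe the lists and not that difference. The motifs were the cell cycle homology region (CHR, TTTGAA), the CCAAT box (CCAAT) and E2F sites (TTTCCCGC, TTTGGCGC, TTTCGCGC or TTTGCCGC). The table held 39 promoters of 36 G2 and M phase genes and 32 promoters of 29 S phase genes, and Foxm1 was not in it. A CCAAT box was in 76.9% of G2 and M phase promoters and 59.4% of S phase promoters, against 29.3% of all 32851 promoters of the table and 31.5% of those of genes tested. A CHR was in 30.8% of G2 and M phase and 9.38% of S phase promoters, against 12.5% and 7.98%. An E2F site was in 31.2% of S phase and 2.56% of G2 and M phase promoters, against 1.58% and 2.63%. For the HSC ageing list the shares were 44.7% for the CCAAT box, 8.51% for the CHR and 0% for E2F sites, over 47 promoters. Matches describe letters and not bound sites. The sequences of 5 of the genes above are shown from 5′ to 3′ on the gene's strand, up to the base before the start site, to show how the motifs lie in promoters of both lists, with and without a second kind of motif. Capitals mark the motifs, also where a motif lies on the other strand.
Prc1 (chr7:80294276-80294475, plus strand): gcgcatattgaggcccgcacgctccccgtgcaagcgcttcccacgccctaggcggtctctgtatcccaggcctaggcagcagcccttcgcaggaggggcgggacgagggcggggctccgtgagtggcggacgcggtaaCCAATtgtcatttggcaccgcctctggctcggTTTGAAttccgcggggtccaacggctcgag
Aurka (chr2:172370571-172370770, minus strand): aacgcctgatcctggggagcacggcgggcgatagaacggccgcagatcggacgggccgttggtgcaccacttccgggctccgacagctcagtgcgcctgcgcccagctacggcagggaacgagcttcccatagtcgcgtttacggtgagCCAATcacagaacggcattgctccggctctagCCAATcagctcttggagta
Plk1 (chr7:122159235-122159434, plus strand): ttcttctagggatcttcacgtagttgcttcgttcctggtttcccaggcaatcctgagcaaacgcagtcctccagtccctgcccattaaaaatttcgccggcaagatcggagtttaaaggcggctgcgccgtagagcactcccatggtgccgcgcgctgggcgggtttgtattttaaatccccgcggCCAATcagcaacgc
Mcm5 (chr8:75109309-75109508, plus strand): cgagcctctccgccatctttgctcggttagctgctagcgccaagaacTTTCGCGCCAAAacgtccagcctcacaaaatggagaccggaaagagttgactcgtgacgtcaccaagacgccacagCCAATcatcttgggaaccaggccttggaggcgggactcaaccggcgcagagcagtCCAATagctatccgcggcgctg
Mcm7 (chr5:138171884-138172083, minus strand): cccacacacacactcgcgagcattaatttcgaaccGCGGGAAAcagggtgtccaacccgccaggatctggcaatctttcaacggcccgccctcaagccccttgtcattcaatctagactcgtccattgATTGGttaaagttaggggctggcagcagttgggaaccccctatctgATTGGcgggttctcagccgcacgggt
The start site of Prc1 shown, the second in the table, has a CCAAT box and a CHR, while the first has a CCAAT box and no CHR. Aurka has a pair of CCAAT boxes and Plk1 has 1 CCAAT box, with no CHR letters in this window. Mcm5 and Mcm7 carry E2F letters upstream of CCAAT boxes, and in Mcm5 a pair of E2F motifs on opposite strands overlap each other. The other start site of Mcm7 and 1 of those of Uhrf1 have a CCAAT box and no E2F letters, and Cdt1 has none of these motifs in this window.

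Genes that mark multipotent progenitors, the cells that HSCs give rise to, mostly had lower values in Selp high cells. Of 20 tested, 17 had lower values, 7 at an unadjusted p under 0.05 and 7 in 4 of 4 mice, with a median of -0.25 and values of -0.68, -0.18, -0.11 and -0.40 by mouse. The median was -0.07 without mouse 1, -0.37 without mouse 2 and -0.40 without mouse 3. Beside Myc the smallest p-values were those of Flt3, a cytokine receptor of progenitors, and Cdk6, a kinase that moves HSCs out of quiescence. Flt3 was at 10.1, 29.4, 12.1 and 18.7 CPM in Selp low and 4.97, 9.70, 7.73 and 10.5 CPM in Selp high libraries, lower in each mouse with a small overlap of the groups (-1.03 ± 0.18, adjusted p = 0.135). Cdk6 was at 40.3, 58.6, 71.9 and 108 and 29.3, 30.2, 47.5 and 61.6 CPM, and the mice differed more than the gates (-0.70 ± 0.10, adjusted p = 0.130). Nkg7, a granule protein gene, differed by -1.05 ± 0.24, and Cd34, which marks progenitors, by -0.16 ± 0.12. Emb, an adhesion protein gene, had a higher value in 4 of 4 mice (0.30 ± 0.09). DESeq2 called Flt3, Cdk6, Myc and Nkg7.

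The lineage priming lists leaned the same way with less agreement between mice. Of 17 lymphoid priming genes 12 had lower values (median -0.16, and -0.64, 0.03, -0.29 and -0.17 by mouse). After Sox4, the E protein gene Tcf3 had the smallest p, at 199.7, 193, 172 and 176 CPM in Selp low and 165, 158, 141 and 140.5 CPM in Selp high libraries without overlap (-0.29 ± 0.07, adjusted p = 0.171). Ly6d and Blnk, of the B lineage, differed by -0.73 ± 0.19 and -0.76 ± 0.21. Of 21 myeloid priming genes 19 had lower values (median -0.22, and -0.41, -0.19, 0.06 and -0.37 by mouse), with 3 at an unadjusted p under 0.05. Medians with a mouse left out were -0.29 to -0.09 for the lymphoid list, weakest without mouse 1, and -0.39 to -0.17 for the myeloid list, strongest without mouse 3. Spi1, which encodes the myeloid factor PU.1, differed by -0.39 ± 0.11 and Irf8, of monocytes and dendritic cells, by -0.32 ± 0.12, both lower in 4 of 4 mice. Gfi1, a repressor known to restrain HSC proliferation, had a higher value in 4 of 4 mice (0.39 ± 0.10). Of 18 erythroid priming genes 9 were higher and 9 lower (median -0.01). Within that list the transcription factor gene Gata1 was at 6.50, 9.25, 16.2 and 26.0 CPM in Selp low and 3.05, 4.44, 10.5 and 12.3 CPM in Selp high libraries, lower in each mouse (-0.96 ± 0.15, adjusted p = 0.132). Its cofactor gene Zfpm1 also had lower values in 4 of 4 mice (-0.27 ± 0.07), while the carbonic anhydrase gene Car1 had a higher value in 3 of 4 (1.46 ± 0.63).

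P-selectin is best known from platelets, yet megakaryocyte and platelet genes as a list did not lean either way. Of 25 tested 13 had higher and 12 lower values, with a median of 0.01. Lower values at an unadjusted p under 0.05 were found for Gp5, for Nfe2, the transcription factor of platelet formation (-0.17 ± 0.06), and for the platelet chemokine gene Ppbp (-0.84 ± 0.33). The platelet granule gene Pf4 differed by -0.09 ± 0.29, the integrin subunit gene Itga2b (CD41) by -0.18 ± 0.09 and Gp9, of the same receptor complex as Gp5, by 0.01 ± 0.09.

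Genes that make or bind selectin ligands were split. Selplg, which encodes the P-selectin ligand PSGL-1, was at 215, 275, 247 and 265 CPM in Selp low and 163, 227, 220.1 and 222 CPM in Selp high libraries. It was lower in the Selp high library of each mouse, opposite to Selp (-0.27 ± 0.07, adjusted p = 0.181). St3gal6, a sialyltransferase that helps build the sialylated glycans of such ligands, was at 26.9, 35.5, 36.7 and 33.7 and 41.5, 59.5, 63.8 and 37.3 CPM, higher in each mouse without overlap (0.58 ± 0.12, adjusted p = 0.164). The fucosyltransferase gene Fut7, needed for functional ligands, differed by -0.33 ± 0.15, and over the 17 genes of the list 6 had higher and 11 lower values (median -0.05). Of 28 adhesion genes 12 had higher and 16 lower values (median -0.04). Higher values in 4 of 4 mice were found for Jam2, its partner gene Jam3 (0.31 ± 0.12), Cd47, the signal that restrains macrophages (0.24 ± 0.07), and Alcam (0.43 ± 0.16). The leukocyte integrin subunit gene Itgb2 (-0.52 ± 0.19) had lower values in 3 of 4 mice.

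Most transporter genes did not share the lower value of Slc22a3. Of 14 cation and drug transporter genes tested, 10 had higher and 4 lower values, with a median of 0.14. Abcg2, the efflux pump behind the side population stain of HSCs, was at 230.5, 203, 240.3 and 254 CPM in Selp low and 328, 249, 294 and 281 CPM in Selp high libraries, higher in 4 of 4 mice (0.31 ± 0.08, adjusted p = 0.181). Abcb1a, another efflux pump gene, differed by 0.42 ± 0.16, and the carnitine transporter gene Slc22a5, of the same family as Slc22a3, by 0.17 ± 0.09.

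Interferon-stimulated genes had mostly higher values in Selp high cells. Of 30 type I interferon genes 23 were higher and 7 lower, with a median of 0.14 and values of 0.16, 0.14, 0.14 and 0.04 by mouse, and 8 were higher in 4 of 4 mice. Without mouse 3 the median was 0.09. Rtp4, an interferon-induced chaperone of surface receptors, was at 115, 154, 121 and 96.5 CPM in Selp low and 187, 222, 200.4 and 131 CPM in Selp high libraries (0.60 ± 0.08, adjusted p = 0.079). It was higher in each mouse, and overlaps Masp1 in the annotation. Ifi44 differed by 0.40 ± 0.09 and Trim30a by 0.24 ± 0.07, while the abundant Oasl2 (-0.05 ± 0.07), the central regulator Irf7 (0.01 ± 0.07) and the ubiquitin-like modifier gene Isg15 (-0.01 ± 0.16) lay near 0. Outside the list, Iigp1, an interferon-inducible GTPase that acts against intracellular pathogens, was at 103, 156, 67.9 and 94.1 CPM in Selp low and 159, 216, 100.1 and 141 CPM in Selp high libraries, higher in each mouse (0.56 ± 0.07, adjusted p = 0.079). Gimap4, a GTPase of immune cells, was at 64.8, 51.7, 21.8 and 36.8 and 102, 77.9, 40.6 and 55.5 CPM and likewise higher in each mouse (0.68 ± 0.09, adjusted p = 0.079).

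All 8 tested genes of the mitochondrially encoded list had higher values in Selp high cells, each at an unadjusted p under 0.05, with a median of 0.55. By mouse the median was 0.42, -0.04, 0.98 and 0.70, so mouse 2 did not share it, and 3 of the 8 were higher in 4 of 4 mice. Without mouse 3 the median was 0.35. The subunit genes of respiratory complex I, mt-Nd2 and mt-Nd5, differed by 0.95 ± 0.20 and 0.44 ± 0.10 (adjusted p = 0.164 and 0.171). The summed level was 5268, 4043, 3856 and 6577 CPM in Selp low and 7214, 4065, 5746 and 9343 CPM in Selp high libraries, highest in mouse 4. The other 5 genes of this list did not pass the filter on low counts. Of all 12 genes tested whose symbols mark them as mitochondrially encoded, in the list or not, 11 had higher values and 1 a lower one. At an unadjusted edgeR p under 0.05 there were 10 higher and 0 lower. Outside the list, DESeq2 called the mitochondrial ribosomal RNA gene mt-Rnr2 as higher (0.80, adjusted p = 3.27e-08). Copies of mitochondrial sequence in the nuclear genome make these levels uncertain.

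Genes of ribosome production, a process that MYC is known to drive, had mostly lower values with small differences, and ribosomal protein genes did not. Of 38 genes of the ribosome biogenesis list 11 had higher and 27 lower values, with 2 higher and 8 lower (21.1%) at an unadjusted p under 0.05 and 8 lower in 4 of 4 mice (median -0.09, and -0.07, -0.08, -0.11 and -0.09 by mouse). The list also holds Ldha, which encodes lactate dehydrogenase and not a factor of ribosome production (-0.01 ± 0.08). The nucleolar genes Nop2 (-0.28 ± 0.07) and Bop1 (-0.27 ± 0.07) had lower values in 4 of 4 mice and Npm1, nucleophosmin, a higher one (0.31 ± 0.07). The median of 77 cytosolic ribosomal protein genes was 0.05, with -0.22, -0.15, 0.17 and 0.41 by mouse, negative in mice 1 and 2 and positive in mice 3 and 4. Many ribosomal protein genes have processed copies, which makes single values uncertain. Of the other 10 genes tested in the MYC network list, 5 had higher and 5 lower values, and the related Mycn differed by 0.03 ± 0.15.

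Among stress and signalling lists, the immediate early genes varied most between mice. Of 28 immediate early genes, which respond within minutes to stimuli, 9 had higher and 19 lower values (median -0.18). By mouse the median was -0.23, -1.25, 0.33 and 0.34, and without mouse 2 it was 0.18. Junb was at 1728, 2439, 1557 and 1631 CPM in Selp low and 1274, 1148, 1536 and 1253 CPM in Selp high libraries without overlap (-0.48 ± 0.15, adjusted p = 0.222), and Ier2 differed by -0.47 ± 0.14, lower in 4 of 4 mice. Of 16 heat shock genes 12 had higher values (median 0.09), with the chaperone gene Dnajb4 at 0.25 ± 0.08. Of 24 p53 targets 14 had higher values (median 0.06, and 0.03, 0.02, 0.14 and 0.12 by mouse), among them the cyclin gene Ccng1 (0.32 ± 0.07), the death receptor gene Fas (0.63 ± 0.17) and the stress sensor gene Sesn1 (0.28 ± 0.09), each higher in 4 of 4 mice, while the cell cycle inhibitor gene Cdkn1a differed by -0.17 ± 0.46. Of 18 NF-kB genes 6 had higher values (median -0.04). Nfkb1 itself had lower values in 4 of 4 mice (-0.23 ± 0.07) and Tnip3, an inhibitor of the pathway, higher ones (0.35 ± 0.07). Of 18 quiescence genes, 10 had higher and 8 lower values (median 0.04). The cell cycle inhibitor gene Cdkn1c, known for HSC quiescence, differed by 0.12 ± 0.11, and Txnip, a brake on glucose uptake, by 0.26 ± 0.09.

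**Figure D3:**
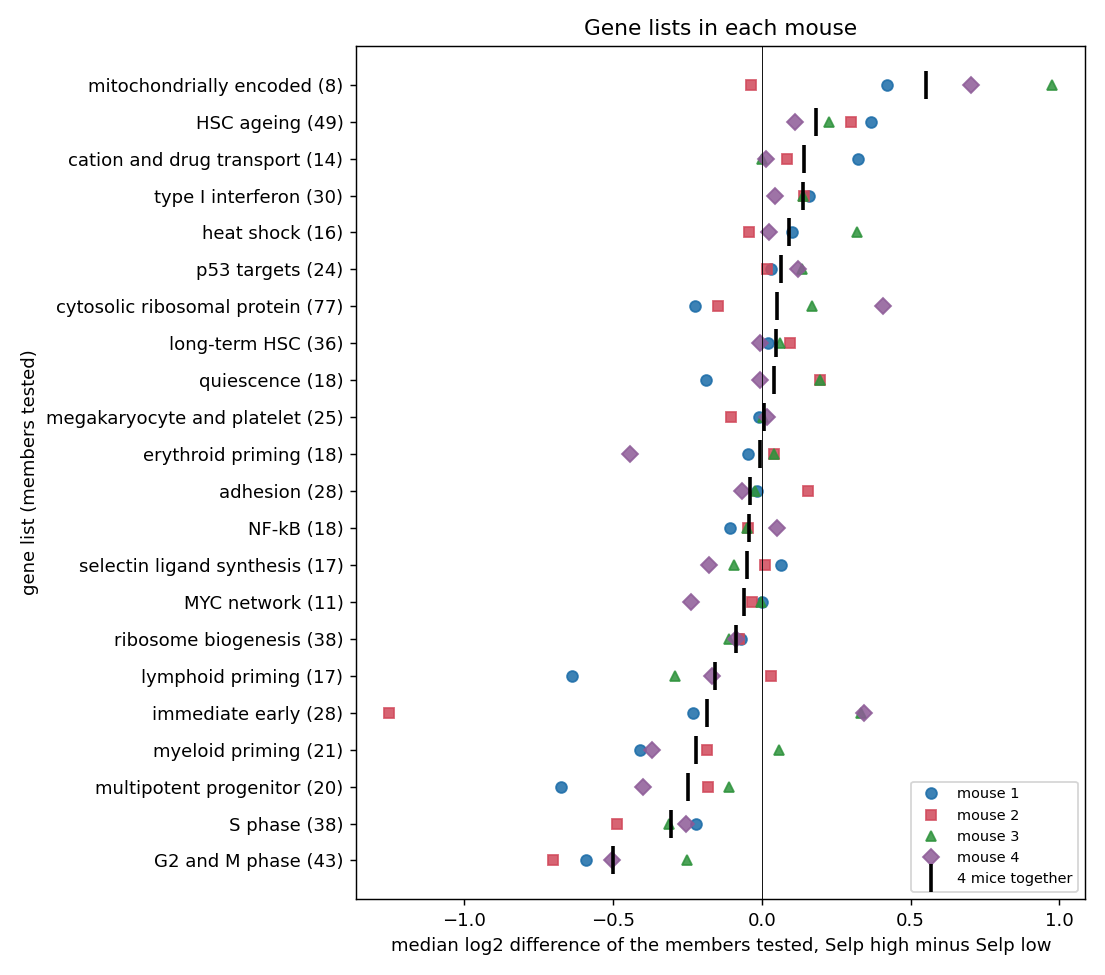
Each row is a gene list with the number of members tested; symbols give the median log2 difference (x axis, Selp high minus Selp low) in each of 4 mice and the bar gives the median over the fit of all mice. The G2 and M phase, S phase, multipotent progenitor and ribosome biogenesis lists lie below 0 in 4 of 4 mice. The HSC ageing, type I interferon, p53 target and cation and drug transport lists lie above 0 in 4 of 4, the last with values down to 0.001. Immediate early and ribosomal protein lists take both signs.

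Markers of cells outside the HSC gate were present in all 8 libraries and their sums varied widely between mice. The 15 neutrophil markers summed to 2156, 3985, 4958 and 15950 CPM in Selp low and 300.4, 6514, 5341 and 21120 CPM in Selp high libraries of mice 1 to 4, and none of them was at 0 in any library. Both libraries of mouse 4 were highest, and in mouse 1 the Selp high library held far less than the Selp low library. The fit placed all 15 lower in Selp high cells (median -0.28), but by mouse the median was -2.95, 0.51, 0.13 and 0.46, and without mouse 1 it was 0.37. The lineage gate held antibodies to Mac-1 and Gr-1, surface proteins of neutrophils. B and plasma cell markers summed to 522, 519, 375 and 6247 CPM in Selp low and 187, 319, 345 and 2657 CPM in Selp high libraries, lower in the Selp high library of each mouse and highest in mouse 4. Of 10 tested, 10 had lower values (median -0.48), 5 at an unadjusted p under 0.05, and Pax5, a defining B cell gene, did not pass the filter on low counts. Ighm, the immunoglobulin M heavy chain, was at 138, 235, 29.6 and 2324 CPM in Selp low and 26.6, 98.9, 28.6 and 832 CPM in Selp high libraries (-1.30 ± 0.30, adjusted p = 0.180). The part of such cells in the values of Igkv14-126 and of lymphoid and cell cycle genes was not tested.

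Epx, eosinophil peroxidase, had the largest difference among named genes. It was at 1.27, 0.836, 58.3 and 53.1 CPM in Selp low and 0.0376, 0.185, 8.31 and 1.68 CPM in Selp high libraries (-3.69 ± 0.45, adjusted p = 0.079). Its reads came mainly from mice 3 and 4, and the Selp high library was lower in each mouse. Mast cell and basophil markers summed to 4.14 to 64.2 CPM over the 8 libraries, with 6 of 6 tested lower in Selp high cells (median -0.45) and 0 at an unadjusted p under 0.05. Of 12 macrophage and monocyte markers 9 had lower values (median -0.41), with 0 at an unadjusted p under 0.05. Mature erythroid markers summed to 153 to 2628 CPM and were highest in mouse 4 (median 0.37). The 7 platelet-restricted markers tested had a median of -0.05 and the list summed to 74.9 to 120.1 CPM. Of 7 T and NK cell markers 5 had higher values (median 0.77), and Cd3e, Cd8a and Ncr1 were among the 5 that did not pass the filter on low counts. Klrb1c, an NK cell receptor gene, averaged 223 ± 67.8 CPM in the high gate against 168 ± 50.9 CPM in the low gate (SD, n = 4 each), higher in 4 of 4 mice (0.40 ± 0.10). Lck and Ccl5, the next most abundant of these markers, differed by -0.11 ± 0.13 and -0.62 ± 0.61, each lower in 3 of 4 mice. Endothelial and stromal markers had medians of 0.10 and 0.79, over 6 tested genes each. In either list 4 had higher and 2 lower values, with 1 higher at an unadjusted edgeR p under 0.05. Several of these medians rested on single mice: without mouse 2 that of stromal markers was -0.20, that of mature erythroid markers -0.01, that of mast cell and basophil markers -0.03 and that of T and NK cell markers 0.30, and without mouse 4 that of macrophage and monocyte markers was -0.04. The endothelial median was 0.003 without mouse 1, and in mouse 4 it was -0.41. Within these lists the endothelial gene Plvap differed by 1.06 ± 0.24, higher in 4 of 4 mice, and Lepr, a marker of marrow stroma, by 1.55 ± 0.57.

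**Figure D4:**
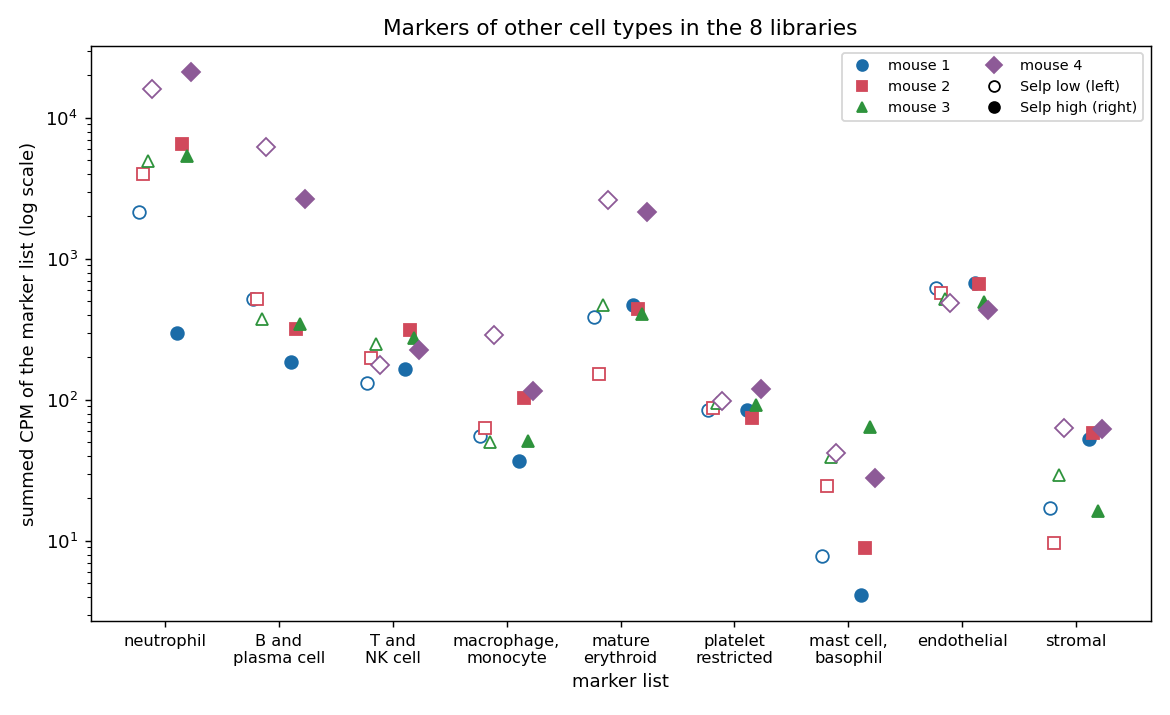
Summed CPM of 9 marker lists, each for 1 other cell type, (log y axis) is shown for each library, with open symbols for Selp low and filled symbols for Selp high cells and 1 symbol shape per mouse. Mouse 4 is highest for neutrophil, B and plasma cell and mature erythroid markers in both gates.

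Whether the difference between gates was still seen in cells derived from each gate was asked with the 6 post-transplant libraries, in a fit of all 14 libraries over 16878 genes. For each gene the difference before transplantation was compared with that after it. By edgeR 0 genes were called (0%), with 1429 at an unadjusted p under 0.05 and a smallest adjusted p of 0.441, and DESeq2 called 64. In simulated data this edgeR contrast recovered 34 of 100 2-fold changes, so a lack of calls does not show a lack of change. Of 25 genes named for the comparison before transplantation, 12 had the same sign after it and 13 the opposite sign. Igkv14-126 was left out of this count because it had hardly any reads after transplantation, with means of 0 CPM in cells derived from the high gate and 0.304 CPM in those derived from the low gate.

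Slc22a3 averaged 92.8 ± 19.7 CPM in cells derived from the high gate against 86.3 ± 52.9 CPM in those derived from the low gate (SD, n = 3 each), a difference of 0.10 ± 0.35. Both means were above the Selp low level before transplantation, and the contrast of the differences was -2.30 ± 0.48 (adjusted p = 0.503). Levels after transplantation were scaled over all 14 libraries and those before it over the 8, and levels were not tested between the stages. Sox4 was at 271 ± 44.4 and 228 ± 18.6 CPM after transplantation (0.25 ± 0.14), a contrast of -1.10 ± 0.18 (adjusted p = 0.451). Myc was at 436 ± 54.6 and 398 ± 49.8 CPM (0.13 ± 0.12), a contrast of -0.88 ± 0.16 (adjusted p = 0.451), so that its level after transplantation was near that of Selp low cells from old mice in both. Flt3 differed by 0.58 ± 0.21 after transplantation, opposite to the difference before it, and its contrast was -1.63 ± 0.28 (adjusted p = 0.451). DESeq2 called Slc22a3, Sox4, Myc and Flt3 in this contrast. Jam2 was at 51.8 ± 7.03 and 50.6 ± 16.6 CPM, below both groups before transplantation (0.03 ± 0.21), with a contrast of 0.77 ± 0.28 (adjusted p = 0.547). Plk1 differed by 0.07 ± 0.30 and Cd38 by 0.13 ± 0.28. Adgrl4, an adhesion G protein-coupled receptor of endothelium, had nearly the same value at both stages, with 0.44 ± 0.07 before and 0.42 ± 0.11 after transplantation, and Selp itself differed by 0.16 ± 0.09 afterwards against 0.33 ± 0.07 before.

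**Figure D5:**
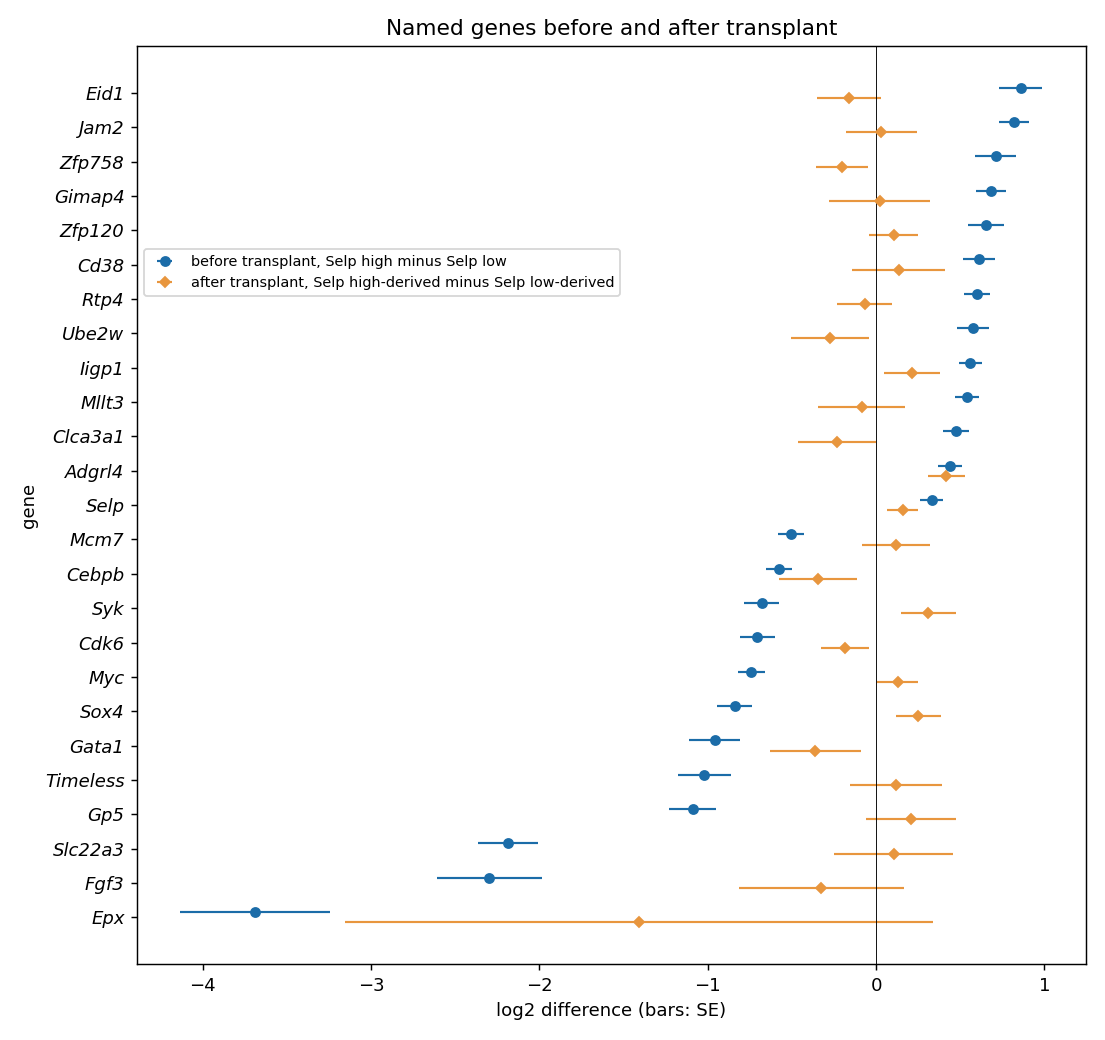
Log2 differences (x axis, bars are SE) are shown for 25 named genes (rows) before transplantation, Selp high minus Selp low, and after it, Selp high-derived minus Selp low-derived. Before transplantation the values run from -3.69 for Epx to 0.86 for Eid1, and Adgrl4 has nearly the same value at both stages.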

How the data were processed

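RNA-seq libraries of LT-HSCs were made from cDNA by template switching and tagmentation, per the labels' protocols. The authors deposited whole-number read counts per gene. Per the submitters' processing notes the tools were STAR 2.7.0d, Picard 2.23.0 and FastQC 0.11.9, and the build was GRCm38. Annotation release and counting settings were not given in the sources used here. Unstranded counts were taken, since sense and antisense sums had a ratio of 0.989 to 0.999. All 55450 gene identifiers matched GENCODE, which gave symbols and positions. Reads that were unmapped (3.35 to 4.97%), multimapping (9.93 to 12.4%), outside genes (3.37 to 4.02%) or ambiguous (4.2 to 4.79%) in the 8 libraries stayed out of library sizes and tests.

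The 8 libraries were fitted with edgeR 4.0.16 in R 4.3.3: TMM factors (0.986 to 1.009), its expression filter with a minimum count of 10, and the quasi-likelihood test with a term for the mouse and 1 for the gate, which left 3 residual degrees of freedom at a biological coefficient of variation of 0.174. P-values were adjusted by Benjamini-Hochberg over all genes tested, with a threshold of 0.05. A prior count of 2 was added for log2 CPM. The design text says that both gates were sorted from 4 mice, and the pairing of numbers was checked by correlation as given above. All pairs of libraries within a group differed beyond sampling noise. The contrast with the post-transplant libraries used all 14, with 7 residual degrees of freedom. DESeq2 1.42.0 and limma 3.58.1 were alternatives. Leaving out a mouse removed both of its libraries.

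The members and the 22 biology and 9 other-cell lists were chosen with earlier results of these data known, and lists are described by counts and medians without a test. Named genes were those called, the 5 markers of the comparison, the 5 genes of the sort, up to 12 protein-coding genes in each direction by smallest p (mean log2 CPM 1 or more, same direction in 4 mice), and, per list, the 4 members of smallest p and the 2 most abundant, or the 3 most abundant for lists of other cells. Further genes were named after their values were seen. A few genes of the rule are not reported here. The fit was tested on simulated data with known changes. The comparison before transplantation recovered 89 of 100 2-fold and 100 of 100 4-fold changes and called 29 of 15226 unchanged genes. The contrast with the post-transplant libraries recovered 34 of 100 and 88 of 100 and called 9 of 16678 unchanged genes. P-values of the comparison before transplantation cover how the difference between gates varied from mouse to mouse, and not the spread of levels between mice.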

Additional observations from a re-analysis of the deposited data

Results flagged for a closer look

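For 155 named genes the level in each group of 4 libraries was checked for a single library far from the other 3, and 23 of 310 groups had one, where chance gives about 1 in 20. Of these, 14 lay in mouse 4, 7 in mouse 1 and 1 each in mice 2 and 3. The Selp high library of mouse 4 held Jam2 at 242 CPM (others 313 to 320), the platelet transcription factor gene Nfe2 at 872 (1100 to 1150), the spindle kinase gene Aurka at 28.4 (14.4 to 15.9), the chaperone gene Dnajb4 at 87.3 (65.5 to 66.4) and the endothelial claudin gene Cldn5 at 37.3 (91.6 to 107). It also held the globin genes Hbb-bs at 987 CPM (203 to 263), Hba-a1 at 457 (81 to 106) and Hbb-bt at 200 (43.1 to 47.9). Globin genes have near-identical copies, so single values are uncertain.

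The Selp low library of mouse 4 held Eid1, an inhibitor of differentiation, at 82.4 CPM (34.9 to 38.6), the replication genes Uhrf1 at 89.1 (49.3 to 53.6) and Top2a at 120 (45 to 47.6), the immunoglobulin light chain gene Igkc at 3590 (175 to 263), the stress sensor gene Sesn1 at 278 (374 to 395) and Tpst2, which sulfates selectin ligands, at 291 (387 to 393).

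In mouse 1, the Selp low library held the cell cycle inhibitor gene Cdkn2d at 98.6 CPM (120 to 125), the ribosomal protein gene Rpl4 at 1500 (1020 to 1080), the chaperone gene Hspa8 at 1490 (927 to 970) and the B cell receptor gene Cd79b at 94.8 (71.9 to 73.9). Its Selp high library held Rplp0 at 1410 CPM (931 to 977), Selplg at 163 (220 to 227) and the monocyte chemokine receptor gene Ccr2 at 0.0752 (9.39 to 16.7). In Selp high mouse 3 the erythroid cofactor gene Zfpm1 was at 162 CPM (210 to 215), and in Selp low mouse 2 the interferon gene Ifi44 was at 141 CPM (88.4 to 91).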

How the results depend on the processing

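No called value changed sign in an alternative, while 11 list medians did in at least 1. Those of the immediate early, neutrophil, ribosomal protein and stromal lists were 0.182, 0.374, -0.061 and -0.204 without mouse 2, 1, 4 and 2, and that of mature erythroid markers was -0.096 with no replicate block. The number of genes called, 2 as reported, was 0 with no replicate block (744 at an unadjusted p under 0.05) and 0 with all 14 libraries in the fit (1508), 4 with RLE size factors, 147 with no filter on low counts, 11 with a minimum count of 50, 5 over protein-coding genes only, 572 with DESeq2, 4 with limma voom and 15 with the newer quasi-likelihood method of edgeR, which was chosen after seeing the data. It was 0 to 14 with a mouse left out. The 2 calls were kept by RLE and TMMwsp factors, both filters on low counts, DESeq2, limma voom and the newer method, and Slc22a3 over protein-coding genes, where Igkv14-126 was not tested. The contrast with the post-transplant libraries gave 13 calls with no filter and 64 with DESeq2, and 0 in the other 8 alternatives run, leave-one-out included. Of the medians, that of ribosome biogenesis genes was -0.104 with no filter and -0.119 to -0.064 with a mouse left out, that of megakaryocyte genes -0.031 to 0.076, that of T and NK cell markers 0.303 to 0.773 and that of p53 targets 0.004 to 0.094. With a minimum count of 50 the T and NK cell median was 0.147, and with no filter the endothelial one was 0.589. The cause was not tested. The other 364 medians under an alternative moved by less than 1 SD over the mice. With 3 residual degrees of freedom the calls rest on few mice.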

Other observations

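Several gene families were picked out after their values were seen and are given as counts only. Zinc finger protein genes of the Zfp series had higher values in Selp high cells in 217 of 356 genes tested, with 56 at an unadjusted p under 0.05 as higher and 17 as lower. The ubiquitin-conjugating enzyme genes of the Ube2 series had higher values in 23 of 33, with 10 at an unadjusted p under 0.05 as higher and 1 as lower. The interferon-inducible GTPase genes related to Iigp1 and the guanylate-binding proteins had higher values in 13 of 16, and Gimap genes in 6 of 9. Lower values were found for 9 of 10 Mcm genes, for 8 of 10 Fanconi anemia genes (Fanc), whose products repair crosslinks met by replication forks, and for 21 of 32 kinesin genes (Kif). Of 25 histone genes of the Hist series 19 had lower values, which is uncertain since their copies share sequence. Proteasome genes (Psm) were split, with 17 of 39 higher.

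Among the neighbours within 300 kb of Myc only the noncoding RNA gene Pvt1 was tested, and it had the opposite difference to Myc. It was at 4.33, 3.48, 3.64 and 4.25 CPM in the Selp high and 2.21, 1.05, 2.89 and 1.97 CPM in the Selp low libraries of mice 1 to 4, without overlap (1.02 ± 0.27, edgeR adjusted p = 0.189). The neighbours of Slc22a3 did not share its difference: Agpat4 differed by -0.08 ± 0.11, Map3k4 by -0.27 ± 0.14, Igf2r by -0.12 ± 0.18 and the imprinted antisense transcript Airn by 0.04 ± 0.31. Near Fgf3 the cyclin gene Ccnd1 differed by -0.21 ± 0.18, and near Jam2 the amyloid precursor gene App by -0.00 ± 0.10.

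Beside Epx, the other eosinophil granule genes Prg2 and Prg3 also had lower values in the Selp high library of each mouse. Prg2 was at 39.8, 14.8, 193 and 269 CPM in the Selp low and 0.527, 1.96, 101 and 77.2 CPM in the Selp high libraries of mice 1 to 4 (-2.39 ± 0.60, edgeR adjusted p = 0.180). The DNA polymerase delta gene Pold1 was at 112, 140.4, 137 and 137 CPM in the Selp low and 88.9, 90.9, 81.9 and 95.6 CPM in the Selp high libraries, without overlap (-0.56 ± 0.09, adjusted p = 0.132).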
